A study of Mus musculus with 20 samples.

Results

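The genes described here encode potassium channels: 30 genes for pore-forming subunits and for the auxiliary subunits that bind them, chosen by symbol as every array probe annotated to one of them. They have 56 of the 45281 probes on the array. A gene was tested when at least 1 of its probes had a detection p under 0.05 on at least 5 of the 20 arrays, which 20 of the 30 genes and 28 of the 56 probes reached, of 11154 tested named genes in the series. Total RNA came from the atrial appendages of CD1 mice aged 12 weeks, 5 of them heterozygous for the mutation under study and 5 wild-type littermates. The left and the right atrium were hybridised separately to Illumina bead arrays, which made 4 groups of 5 arrays, named LA wt, LA het, RA wt and RA het. The labels do not describe how the mutant allele was made, and they do not tie a left atrium to the right atrium of the same mouse. The tests therefore treated the arrays as independent, although both sides come from the same animals.

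Potassium channels let potassium leave the cardiac myocyte and so end the action potential, set the resting potential and tune the excitability of the atrium. Voltage-gated channels carry the transient outward current and the delayed rectifier currents of repolarisation, inward rectifiers and leak channels hold the resting potential, and further channels open on acetylcholine, on loss of ATP or on a rise of calcium. The study design crosses the side of the heart with the genotype.

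Of 6 atrial muscle markers, Nppa, Myl4, Myl7, Sln and Nr2f2 were detected on all 20 arrays, the first 4 of them at 27935.7 or more. Bmp10, the other marker, was detected on 11 arrays and lay between -5.5 and 6 on LA wt, against 713.8 to 3067.7 on RA wt. Some arrays stood apart in markers of other tissue. Myl2, the ventricular myosin light chain, exceeded a signal of 3000 on 6 arrays: LA het replicate 2, RA wt replicates 2 and 4, and RA het replicates 1, 3 and 4. The 6 ventricular markers together summed to between 3722.2 and 10044.1 on LA wt, 4011.7 and 17669.4 on LA het, 5436.1 and 60730.3 on RA wt, and 2544.1 and 66929 on RA het. Myl2 itself separated the sides in wild type, at 6.9 to 106 on LA wt and 698.2 to 29382.7 on RA wt, with an averaged log2 side difference of -4.42 (SE 0.84, adjusted p = 0.00157 by limma). A fit with Myl2 as a covariate therefore takes up part of the side difference itself, and in it the side and the Myl2 level cannot be fully told apart. The other 3 tested markers of this list, Myl3, Myh7 and Hey2, did not pass between the sides (adjusted p = 0.878 or more in the average by limma). Of these markers, Mpped2 was detected on 0 arrays and Irx4 on 1 array. Ucp1, the uncoupling protein of brown fat, exceeded 100 on 4 arrays: LA het replicates 1, 2 and 4 and RA het replicate 1. The summed signal of 6 adipocyte markers was 185.4 to 954.4 on LA wt, 345.3 to 11290.1 on LA het, 529.2 to 5406 on RA wt and 677.7 to 8237.6 on RA het, and all 6 were detected on at least 1 array. Smooth muscle and pericyte markers, 8 genes of which Cnn1 was detected on 0 arrays, summed to between 4075.3 and 7211.7 on LA wt, 4699.4 and 29751.9 on LA het, 7024.3 and 24185.4 on RA wt, and 6349.3 and 11514.4 on RA het. All 5 macrophage markers with a probe were higher on the right in the average, with a median log2 difference of -0.51, and their sum ran from 1555.8 to 2051.2 on LA wt, 1999.9 to 2840.1 on LA het, 2504.3 to 3647.4 on RA wt and 2393.6 to 3754.5 on RA het. Of 7 endothelial markers 2 were higher on the right in the average, Vwf at -0.70 (adjusted p = 8.6e-06 by limma) and Eng at -0.57 (adjusted p = 2.8e-05 by limma), and the other 5 did not pass. The part of macrophages and endothelium in the side differences of the channel genes was not tested. Both limits on Myl2 and Ucp1 were chosen after the data were seen, and results that lean on these arrays are given with and without them.

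The sequence just upstream of the start site is shown for genes whose transcripts differed between the sides and that the RefSeq promoter table lists with 1 start. Each line gives 250 bases, 5′ to 3′ on the gene's strand, up to the base before the start (RefSeq, GRCm38.p6), with every CG pair in capitals.
Kcnd2, chr6:21215096-21215345, + strand: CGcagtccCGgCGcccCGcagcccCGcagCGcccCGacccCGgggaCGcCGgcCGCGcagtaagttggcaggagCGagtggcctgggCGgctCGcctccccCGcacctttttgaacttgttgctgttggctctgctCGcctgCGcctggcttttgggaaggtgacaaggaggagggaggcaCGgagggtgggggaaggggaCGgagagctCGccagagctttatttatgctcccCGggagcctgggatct
Kcna5, chr6:126535556-126535805, - strand: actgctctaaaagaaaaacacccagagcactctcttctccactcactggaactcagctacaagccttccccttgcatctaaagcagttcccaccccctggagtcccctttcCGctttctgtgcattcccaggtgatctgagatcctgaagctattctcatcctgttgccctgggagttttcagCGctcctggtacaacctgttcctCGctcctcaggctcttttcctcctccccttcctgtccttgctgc
Abcc9, chr6:142702275-142702524, - strand: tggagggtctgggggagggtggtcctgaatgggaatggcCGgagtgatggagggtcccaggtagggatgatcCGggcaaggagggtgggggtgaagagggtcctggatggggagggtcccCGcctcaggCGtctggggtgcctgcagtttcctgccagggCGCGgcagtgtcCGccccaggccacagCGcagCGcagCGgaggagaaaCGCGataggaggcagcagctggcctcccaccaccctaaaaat
Kcnj5, chr9:32344345-32344594, - strand: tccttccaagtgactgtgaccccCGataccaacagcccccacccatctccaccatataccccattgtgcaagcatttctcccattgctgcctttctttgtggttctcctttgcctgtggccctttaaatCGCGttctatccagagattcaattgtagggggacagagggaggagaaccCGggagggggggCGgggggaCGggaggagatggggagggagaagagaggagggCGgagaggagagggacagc

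The Kcnd2 window holds 22 CG pairs and is 68.8% G and C, and 14.8% of the promoters in the table have at least as many pairs. Abcc9 has 12 pairs at 66.8% G and C, Kcnj5 7 pairs at 58.0%, and Kcna5 3 pairs at 53.2%, against medians of 6 pairs and 52.4% over the table. The left-higher genes thus include the window richest in CG and the poorest of the 4. The T-box core AGGTGT, searched on both strands (ACACCT on the other), occurred in 5 of 34 member promoters for the 24 member genes with an entry, or 14.7%, against 11.8% of the 32851 promoters in the table. It is in none of the 4 windows shown, which says only that these letters are absent there.

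The first comparison asks how the atria differ in the normal adult heart. A linear model of the 4 groups was fitted with limma to the log2 values of all tested probes, and a gene passed when its brightest tested probe had a p under 0.05 after Benjamini-Hochberg adjustment over all of them. Signals given by array are the deposited intensities, in arbitrary units after background subtraction, and can be compared between arrays for a probe but not between probes. In wild-type mice 1 of the 20 tested genes passed: Kcnd2 was higher in the left atrium. Over all 11154 named genes 4.2% passed in this comparison, so the share among the potassium channel genes is near the background. In heterozygous mice 2 of the 20 passed, Kcnk2 higher on the left and Kcne1 higher on the right, against a background of 3.29%. Averaged over the genotypes, which sets 10 left against 10 right arrays, 6 of the 20 passed against a background of 9.09%. Kcnd2, Kcna5 and Kcnk2 were higher in the left atrium, as were 4.65% of all named genes, and Kcne1, Abcc9 and Kcnj5 were higher in the right, as were 4.44%. The median log2 difference of the 20 genes, left minus right, was 0.05 in the average, and that of all named genes was 0.01. In bulk tissue, fewer cells of a type and less RNA per cell cannot be told apart, which holds for every difference given here.

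**Figure D1:**
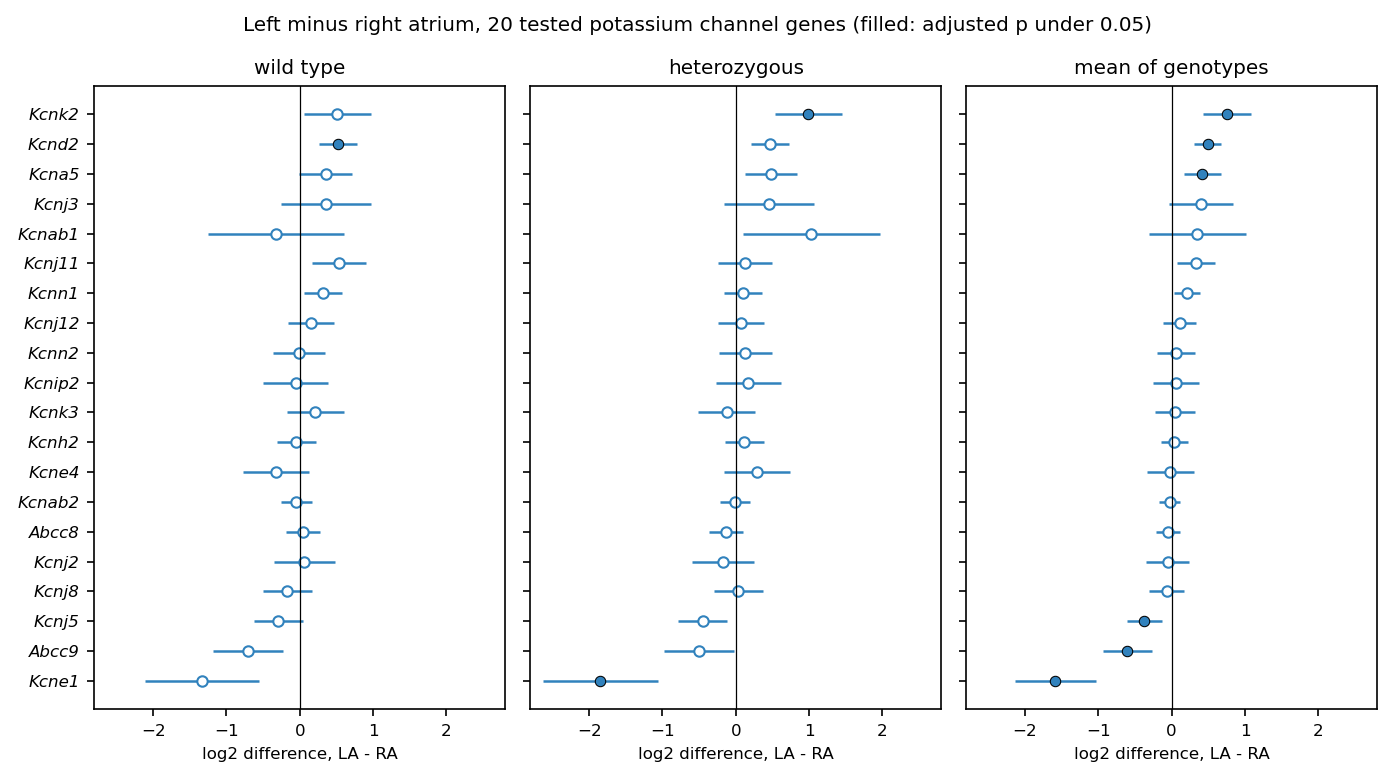
Log2 difference between left and right atrium (left minus right) of the 20 tested potassium channel genes, in wild-type mice, in heterozygous mice and averaged over the genotypes. Points are limma estimates, lines their 95% confidence intervals and filled points passed an adjusted p of 0.05, with Kcne1 lowest at -1.59 and Kcnk2 highest at 0.75 in the average.

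Among the voltage-gated pore genes, Kcnd2 and Kcna5 were higher in the left atrium. Kcnd2 encodes a pore subunit of the fast transient outward current, which shapes early repolarisation. Its deposited signal was 1544.7, 1662.9, 1477.5, 1958.6 and 1749.5 on the LA wt arrays and 1591.3, 1525.4, 1856.6, 1813.8 and 1785.7 on LA het, each in order of replicate number. On the right it was 1256.4, 1213.9, 1362.7, 1068.2 and 964.3 on RA wt and 993.7, 1277.6, 1053.8, 1479.6 and 1450.5 on RA het. Left and right did not overlap within either genotype, and over both genotypes the lowest left array, at 1477.5, lay just under the highest right array, at 1479.6. The log2 difference was 0.51 (SE 0.12, adjusted p = 0.0219 by limma, 1.43-fold) in wild type and 0.46 (SE 0.12, adjusted p = 0.0506 by limma) in heterozygotes. Averaged over the genotypes it was 0.49 (SE 0.09, adjusted p = 0.000917 by limma, 1.40-fold). The wild-type call was lost when LA wt replicate 4 or 5 or RA wt replicate 4 or 5 was left out (adjusted p up to 0.0746 by limma). It was also lost without the arrays with Myl2 above 3000, at 0.49 (adjusted p = 0.065 by limma), whereas the average then stood at 0.43 (adjusted p = 0.0214 by limma). With the log2 level of Myl2 as a covariate the average was 0.38 (adjusted p = 0.178 by limma). A second Kcnd2 probe gave 0.42 in the average (SE 0.13, adjusted p = 0.0502 by limma). On that probe the sides overlapped in both genotypes. Its lowest left array was at 396 in wild type and 416 in heterozygotes, and its highest right array at 442.8 and 485.1.

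Kcna5 encodes the pore of the ultrarapid delayed rectifier, a repolarising current that in humans is found in atrial rather than ventricular myocytes. The LA wt arrays had Kcna5 signals of 81.1, 147.8, 86.9, 124.7 and 141.2, and the LA het arrays 145.3, 148, 186.9, 144.1 and 193.6. Right atrial signals were 84.9, 108.6, 84.8, 74.8 and 76.4 on RA wt and 69.6, 103.3, 125.4, 140.9 and 134.6 on RA het. The sides overlapped in wild type and did not overlap in heterozygotes, where the lowest left array stood at 144.1 and the highest right array at 140.9. Kcna5 passed in the average of the genotypes, with a log2 difference of 0.42 (SE 0.12, adjusted p = 0.0397 by limma, 1.34-fold), against 0.35 in wild type (adjusted p = 0.426 by limma) and 0.48 in heterozygotes (adjusted p = 0.188 by limma). This call held in 9 of the 20 fits that left out 1 array, with adjusted p up to 0.0792 by limma. It was lost without LA wt replicate 2, 4 or 5, LA het replicate 3 or 5, RA wt replicate 1, 3, 4 or 5, or RA het replicate 1 or 2. Without the arrays with Myl2 above 3000 it stood at 0.42 (adjusted p = 0.121 by limma).

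The remaining voltage-gated genes gave no call. Kcnip2 encodes a cytoplasmic partner of the transient outward channel, and its probe was detected on 11 arrays. Kcnip2 signals were 5.3, 12.6, 15.2, 30.4 and 20 on LA wt, 7.8, 22.8, 17.8, 24.4 and 27.2 on LA het, 12.4, 25.4, 13.8, 19.2 and 20.8 on RA wt and 6.5, 20.6, 3.2, 5 and 42.7 on RA het, so all 4 groups overlapped near the detection limit. Kcnh2, the pore gene of the rapid delayed rectifier and the mouse counterpart of human hERG, was detected on all 20 arrays. Its signals were 675.1, 822.2, 762.1, 791.4 and 735.5 on LA wt, 849.6, 704.2, 810, 724.2 and 730.8 on LA het, 665.6, 824.7, 1034.7, 696.9 and 736.5 on RA wt and 550.4, 786, 870.1, 620.6 and 718.2 on RA het. The averaged side difference of Kcnh2 was 0.04 on the log2 scale with a 95% interval from -0.15 to 0.22, so that these data leave room for a difference of up to about that size in either direction. Its other 2 tested probes gave -0.12 and 0.06, neither passing (adjusted p = 0.799 and 0.882 by limma).

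**Figure D2:**
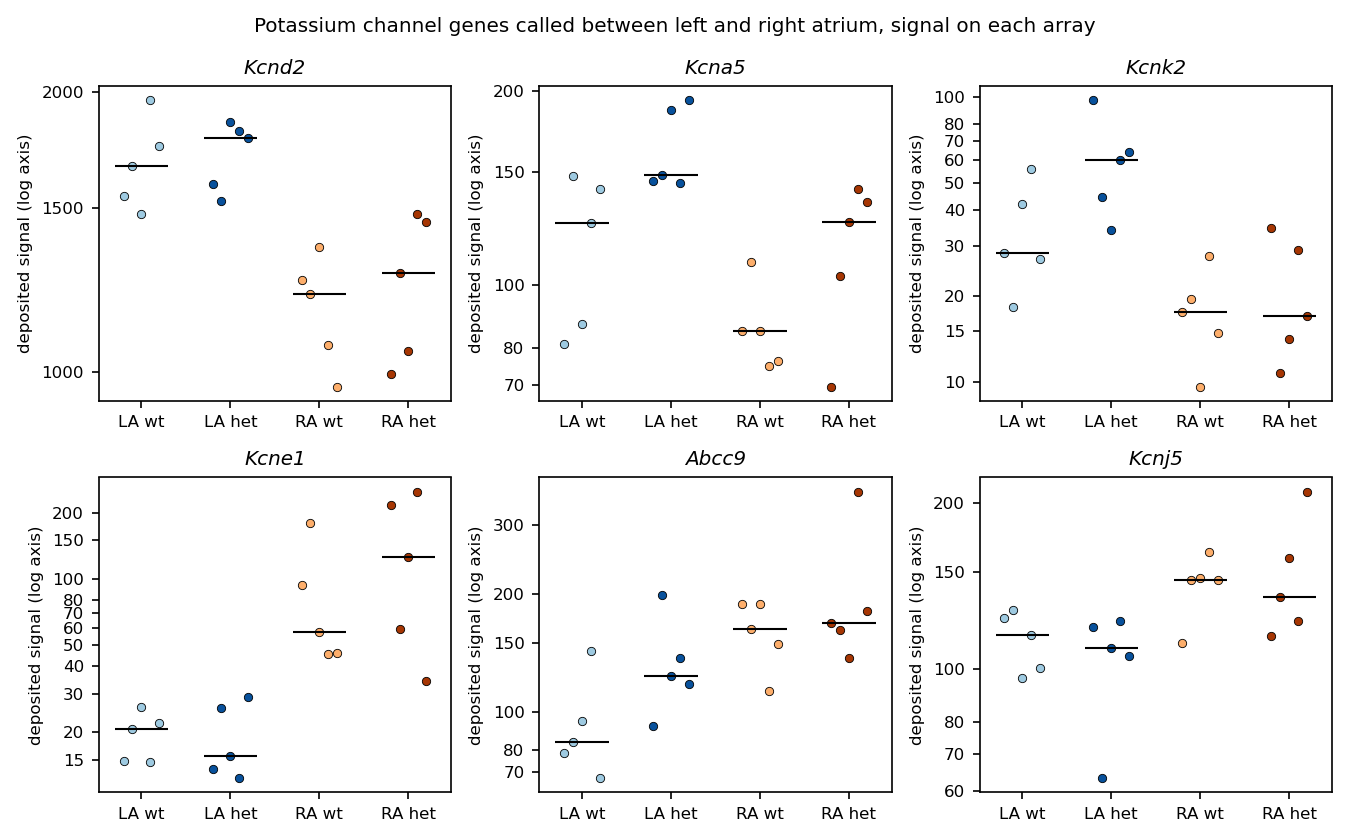
Deposited signal (arbitrary units, log axis) of the 6 potassium channel genes that passed between the sides, 1 point for each of the 5 arrays of a group, with a black line at the group median. Kcne1 is the gene whose 10 left arrays, at 29.1 or less, all lie under its 10 right arrays, at 34.3 or more.

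Of the leak channel genes, Kcnk2 was higher in the left atrium. Kcnk2 encodes TREK, a channel opened by stretch and by lipids. Its signals were 28.2, 18.2, 42, 56 and 27 on LA wt and 97.2, 44.4, 34, 60 and 64.2 on LA het, against 17.5, 19.5, 9.6, 27.6 and 14.8 on RA wt and 34.7, 10.7, 14.1, 28.9 and 17 on RA het. The probe was dim, detected on all left arrays and on 3 of 5 arrays in each right group, so the log2 scale with its offset of 16 understates the fold. In heterozygotes a single left array, at 34, lay under the highest right array, at 34.7. The log2 difference was 0.99 (SE 0.22, adjusted p = 0.0156 by limma, 1.99-fold) in heterozygotes and 0.51 (SE 0.22, adjusted p = 0.327 by limma) in wild type. Averaged over the genotypes it was 0.75 (SE 0.16, adjusted p = 0.00344 by limma, 1.68-fold). That average passed in all 33 alternative settings, with values between 0.44 and 0.98. The call in heterozygotes was lost without LA het replicate 1 (adjusted p = 0.0529 by limma). It was also lost without the arrays with Ucp1 above 100, at 0.90 (adjusted p = 0.176 by limma). The latter fit leaves out LA het replicates 1, 2 and 4 and RA het replicate 1, so it has fewer arrays to pass with.

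Kcnk3 encodes TASK, an acid-sensitive leak channel. Kcnk3 signals were 2849.3, 3434.4, 2217.7, 2357.3 and 2130.4 on LA wt and 2666.5, 2627.7, 2459.6, 2002.2 and 2178.6 on LA het. On RA wt they were 3507.5, 1864.2, 2287.6, 1878 and 1843.4, and on RA het 2393.2, 2802.6, 2613.2, 3535.3 and 1861.5. The groups overlapped throughout, and the averaged side difference was 0.05 on the log2 scale (95% interval -0.23 to 0.32, adjusted p = 0.929 by limma).

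Kcne1 gave the largest side difference of the 20 tested genes. Kcne1 encodes minK, a single-pass subunit that joins the Kcnq1 pore to form the slow delayed rectifier, and in the mouse heart it is known from the conduction system. Its left atrial signals were 14.8, 20.7, 26, 14.7 and 22.1 on LA wt and 13.7, 25.8, 15.6, 12.4 and 29.1 on LA het. Right atrial signals were 94.1, 179.5, 57.3, 45.3 and 46 on RA wt and 217.5, 59.2, 125.5, 248.4 and 34.3 on RA het. All 10 right arrays lay above all 10 left arrays, and the right arrays spread over a far wider range. The log2 difference, left minus right, was -1.33 (SE 0.37, adjusted p = 0.0572 by limma) in wild type and -1.84 (SE 0.37, adjusted p = 0.00769 by limma) in heterozygotes. In the average it was -1.59 (SE 0.26, adjusted p = 0.000434 by limma, 3.01-fold higher on the right). The probe was detected on 3 of 5 arrays in each left group and on all right arrays.

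The 3 highest Kcne1 signals, 248.4, 217.5 and 179.5, were on RA het replicate 4, RA het replicate 1 and RA wt replicate 2, where Myl2 stood at 33896.9, 11228.1 and 29382.7. RA wt replicate 4, with Myl2 at 5897.4, had a Kcne1 signal of 45.3, the lowest of its group, and RA wt replicate 1, with the lowest Myl2 of its group at 698.2, had 94.1, the second highest. Kcne1 and Myl2 thus stood high together on these 3 arrays and not in the same order over the rest of RA wt. On RA het the 3 highest arrays came in the same order for both genes, replicates 4, 1 and 3. Replicate 3 had Myl2 at 3187.5 and Kcne1 at 125.5. RA het replicates 2 and 5 had Myl2 at 402 and 543.6, and Kcne1 in the other order, at 59.2 and 34.3. Of other ventricular markers, Myl3 was highest of all 20 arrays on RA het replicates 4 and 1 and RA wt replicate 2. It stood at 32864.2, 25080.1 and 31064.4 there, against 13463.9 or less on the others. Myh7 was not high on RA het replicates 1 and 4, at 63.6, the lowest of all 20 arrays, and 130.1. LA het replicate 2, with Myl2 at 3999.7, had a Kcne1 signal of 25.8. Without the 6 arrays with Myl2 above 3000 the averaged difference was -1.002 (SE 0.16, adjusted p = 0.00141 by limma). In heterozygotes alone, with RA het replicates 2 and 5 left on the right, the difference was -0.86 (adjusted p = 0.134 by limma). In wild type it was -1.15 without those arrays (adjusted p = 0.00601 by limma). Without the arrays with Ucp1 above 100 the average was -1.43 (adjusted p = 0.0142 by limma). The difference in heterozygotes then was -1.52 (adjusted p = 0.275 by limma), with LA het replicates 1, 2 and 4 and RA het replicate 1 left out. With the log2 Myl2 level as a covariate the average was -0.58 (SE 0.29, adjusted p = 0.441 by limma). In that fit the difference was -1.11 in heterozygotes (adjusted p = 0.09 by limma) and -0.05 in wild type (adjusted p = 0.979 by limma). Markers of the conduction system and sinoatrial node also separated the sides: their sum ran from 209 to 339.6 on LA wt, 224.5 to 657.4 on LA het, 690.3 to 1691.4 on RA wt and 698.2 to 1416.5 on RA het, with Hcn4 detected on 0 arrays. The part of these tissues in the Kcne1 difference was not tested. A second tested Kcne1 probe, detected on 8 arrays, gave -0.10 in the average (SE 0.08, adjusted p = 0.601 by limma), so the probes of this gene disagree in size, and its other 2 probes did not reach the filter.

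**Figure D3:**
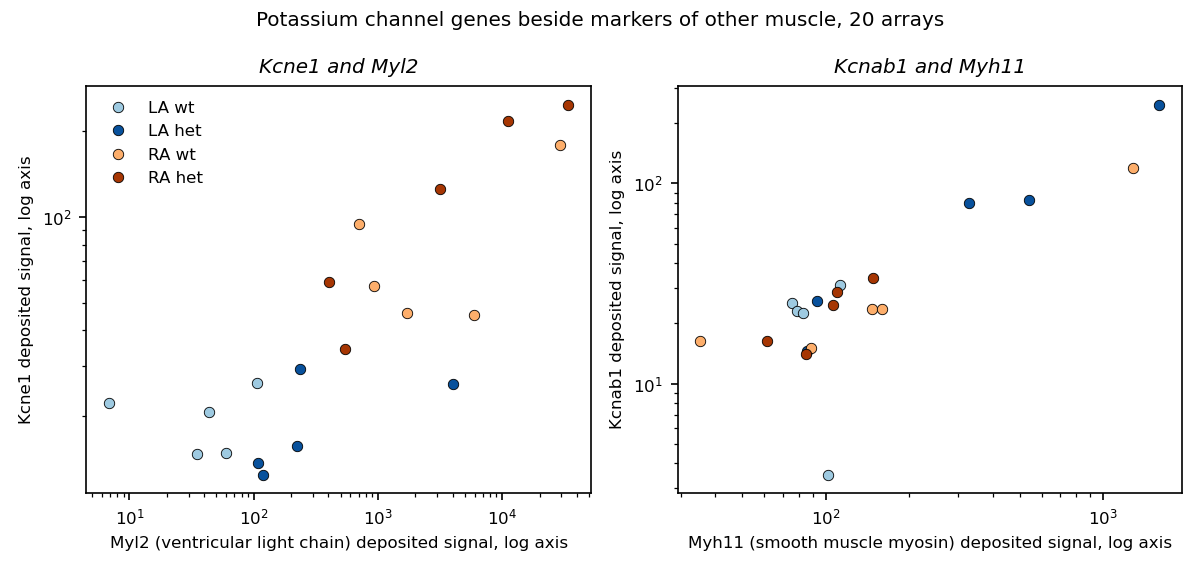
Kcne1 against Myl2, a ventricular marker, and Kcnab1 against Myh11, a smooth muscle marker, as deposited signals on log axes, 1 point per array, coloured by group. The 3 highest Kcne1 signals (179.5 to 248.4) lie at Myl2 signals of 11228.1 or more, and the 4 highest Kcnab1 signals (79.4 to 247.7) at Myh11 signals of 328.8 or more.

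Kcne4 encodes a relative of minK that damps delayed rectifier channels. Its signals were 19, 22, 25.1, 21.2 and 12 on LA wt, 35.8, 62.6, 22.7, 22 and 27.3 on LA het, 22.8, 46.5, 34.9, 28.8 and 17.8 on RA wt and 41.5, 30.9, 18.8, 6.3 and 22.9 on RA het. The groups overlapped, and the side difference was -0.33 in wild type and 0.29 in heterozygotes. The difference between these differences was 0.62 on the log2 scale (SE 0.30, adjusted p = 0.9994 by limma), which does not pass.

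Kcnab1 and Kcnab2 encode cytoplasmic beta subunits that bind voltage-gated pores of the Kcna family. Kcnab1 signals were 25.3, 23, 31, 3.5 and 22.6 on LA wt and 82.3, 247.7, 26, 79.4 and 14.5 on LA het. On the right they were 16.3, 118.8, 15, 23.7 and 23.5 on RA wt and 33.6, 14.1, 24.6, 28.7 and 16.4 on RA het. Of the 20 arrays 4 stood high, LA het replicates 1, 2 and 4 and RA wt replicate 2, and the other 16 lay between 3.5 and 33.6. Myh11, the smooth muscle myosin and 1 of the 8 smooth muscle and pericyte markers, was highest on the same 4 arrays: 541.3, 1590.4 and 328.8 on the LA het arrays and 1286 on RA wt replicate 2, against 159.7 or less on the others. Acta2, smooth muscle actin, was also highest on LA het replicate 2 and RA wt replicate 2, at 24946.9 and 20109.6, against 9514.2 or less elsewhere. Over the other arrays Acta2 did not follow Kcnab1: RA wt replicates 1, 4 and 5 had Acta2 at 9514.2, 8943.7 and 9391.8. These lay above the 8886.6 and 8744.7 of LA het replicates 1 and 4, while Kcnab1 on those RA wt arrays stood at 16.3, 23.7 and 23.5. All 7 tested markers of this list were higher in LA het than in LA wt, with a median log2 difference of 0.32 and a highest of 1.61. Of them 0 passed, and 3 had an unadjusted p under 0.05 by limma, against 5.41% of all named genes. Pdgfrb and Smtn differed between LA het and LA wt by 0.03 and 0.06 on the log2 scale (adjusted p = 0.9997 by limma for both). The 3 LA het arrays with high Kcnab1 are also 3 of the 4 with Ucp1 above 100. The Kcnab1 side difference in heterozygotes was 1.03 (SE 0.45, adjusted p = 0.322 by limma) and did not pass, and without the arrays with Ucp1 above 100 it was -0.03 (adjusted p = 0.99 by limma). With the log2 Myl2 level as a covariate it was 1.81 (adjusted p = 0.0231 by limma). What smooth muscle contributes to these signals was not tested. The second tested Kcnab1 probe was highest on LA het replicate 2, at 113.3, and on RA wt replicate 2, at 53.2. It was detected on 5 arrays, 4 of LA het and 1 of RA wt. It thus reached the filter mainly through the group where it is high, and is not a separate check. Kcnab2, in contrast, was among the steadiest members, between 40.2 and 68 on all 20 arrays, with an averaged side difference of -0.03 (95% interval -0.18 to 0.12).

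Among the inward rectifiers, Kcnj3 and Kcnj5 together form the channel that acetylcholine opens in atrial myocytes, and of this pair Kcnj5 passed. Kcnj5 signals were 123.8, 127.9, 96.4, 115.4 and 100.6 on LA wt and 119.4, 63.3, 109, 122.4 and 105.7 on LA het. They were 111.3, 145, 146.1, 163 and 145.2 on RA wt and 114.7, 135.4, 159, 122 and 210 on RA het. The right arrays were mostly higher, with overlap in both genotypes. The averaged log2 difference was -0.37 (SE 0.11, adjusted p = 0.0477 by limma, 1.30-fold higher on the right), against -0.29 in wild type (adjusted p = 0.512 by limma) and -0.45 in heterozygotes (adjusted p = 0.176 by limma). This call lay close to the threshold and held in 6 of the 20 fits that left out 1 array, with adjusted p up to 0.0918 by limma. It held without LA wt replicate 2, LA het replicate 1 or 4, RA wt replicate 1, or RA het replicate 1 or 4, and was lost without each of the others. A second Kcnj5 probe, detected on 13 arrays, gave -0.14 (SE 0.17, adjusted p = 0.785 by limma).

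Kcnj3 signals were 832.1, 1220.6, 1208.3, 1959.8 and 2147.4 on LA wt and 812.9, 794.9, 1270.1, 1109.1 and 2072.3 on LA het. On RA wt they were 911.8, 729.2, 884.8, 1239.2 and 2033.1 and on RA het 594.4, 760.8, 936.5, 932.6 and 980.7. They ranged widely within a group, from 832.1 to 2147.4 on LA wt, and the sides overlapped. On this probe replicate 5 had the highest Kcnj3 signal in each of the 4 groups. The averaged side difference was 0.40 on the log2 scale, opposite in sign to that of Kcnj5 (SE 0.21, 95% interval -0.03 to 0.84, adjusted p = 0.34 by limma). A second probe, detected on all 20 arrays, gave 0.31 (SE 0.12, adjusted p = 0.137 by limma). On that second probe replicate 5 was highest in LA het and not in the other groups. On LA wt, for example, replicate 5 stood at 335.2 and the highest array at 430.8.

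Kcnj2 and Kcnj12 encode strong inward rectifiers that hold the resting potential. Kcnj2 signals were 50.7, 24.3, 31.4, 19.4 and 22.6 on LA wt, 24, 18.9, 25, 25 and 41.9 on LA het, 20.5, 43.5, 26.5, 24.5 and 21.4 on RA wt and 40.9, 52.3, 16.5, 22.9 and 34.3 on RA het. Those of Kcnj12 were 1242.5, 920.2, 1035.6, 926.6 and 786.6 on LA wt, 1160.3, 1027.7, 917.1, 856.8 and 1042.9 on LA het, 1216.8, 843.4, 1001.3, 683.2 and 714.9 on RA wt and 1081.8, 921.5, 780.1, 1048.3 and 950.2 on RA het. Neither gene separated the groups. The averaged side differences were -0.06 for Kcnj2 (95% interval -0.35 to 0.24) and 0.11 for Kcnj12 (-0.11 to 0.33).

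**Figure D4:**
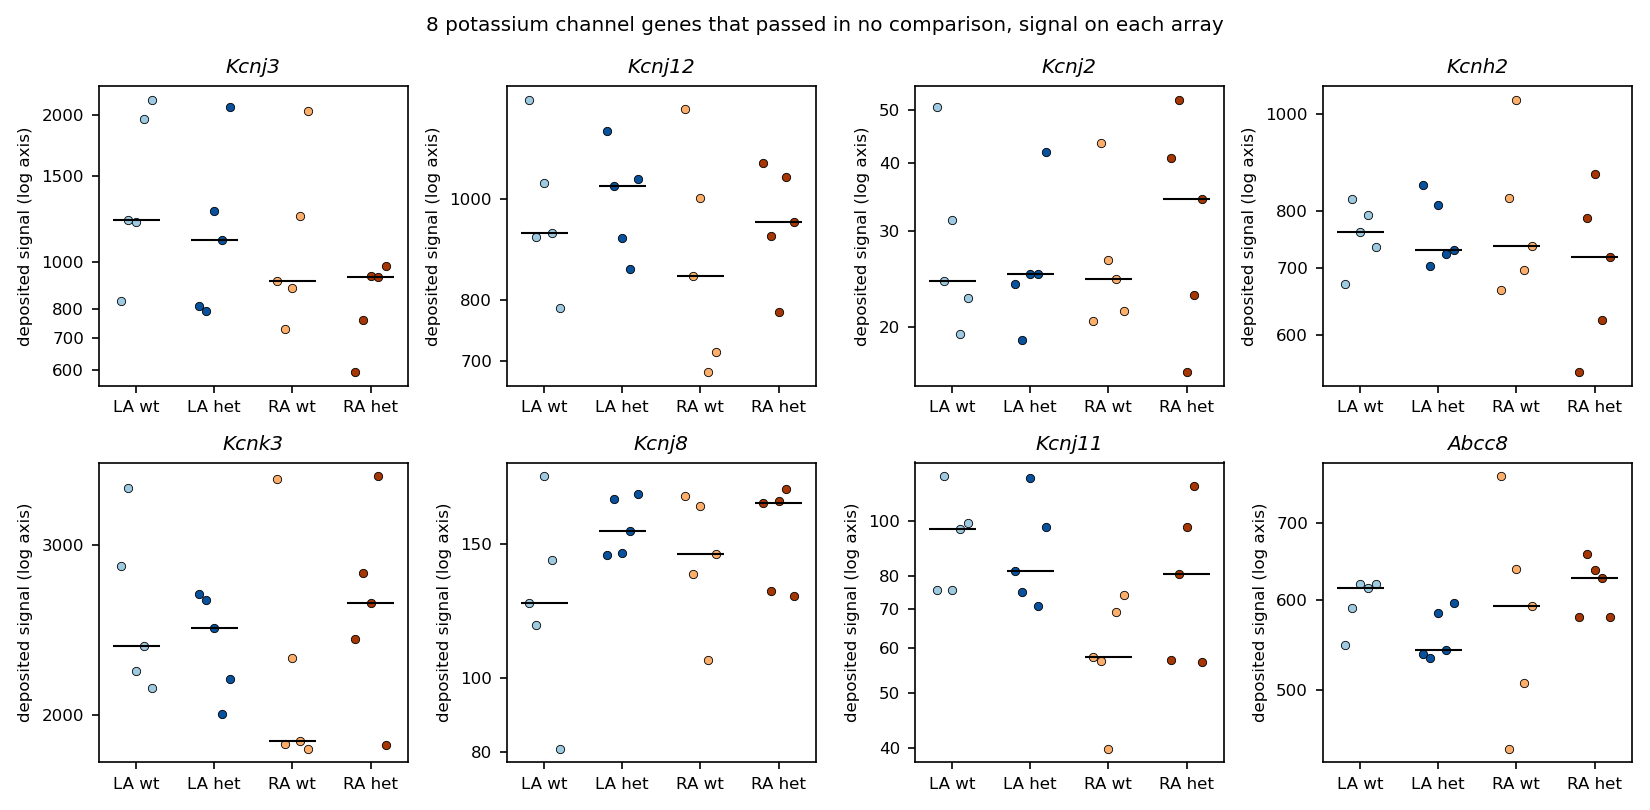
Deposited signal (arbitrary units, log axis) of 8 potassium channel genes that passed in none of the 7 comparisons, 1 point per array, with a black line at the group median. The groups overlap for Kcnh2, Kcnj12, Kcnk3 and Abcc8, while the 5 Kcnj11 signals of LA wt (75.6 to 119.7) lie above those of RA wt (39.9 to 74.1).

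The channel that closes on ATP is built of a Kcnj8 or Kcnj11 pore and an Abcc8 or Abcc9 sulfonylurea receptor, and of these 4 genes Abcc9 passed between the sides. Abcc9 signals were 78.5, 83.5, 95, 143 and 67.7 on LA wt and 92.2, 198.6, 123.6, 137.3 and 117.5 on LA het. They were 188.3, 163.2, 188, 112.9 and 149.4 on RA wt and 169.1, 161.4, 137, 364.8 and 181.3 on RA het. The right arrays were mostly higher, and the groups overlapped in both genotypes. In the average the log2 difference was -0.60 (SE 0.16, adjusted p = 0.0227 by limma, 1.52-fold higher on the right), against -0.71 in wild type (adjusted p = 0.118 by limma) and -0.50 in heterozygotes (adjusted p = 0.352 by limma). Without the arrays with Myl2 above 3000 the average was -0.67 (adjusted p = 0.0128 by limma) and the wild-type difference -0.84 (adjusted p = 0.025 by limma). With the Myl2 level as a covariate the average was -0.26 (adjusted p = 0.757 by limma). A second Abcc9 probe, detected on 6 arrays, gave -0.36 (SE 0.21, adjusted p = 0.424 by limma). Abcc9 is also expressed by pericytes and smooth muscle. Pdgfrb, a pericyte marker, ranged from 123.3 to 169.8 on the left and 116.9 to 175.2 on the right. The list of smooth muscle and pericyte markers did not move one way in wild type or in the average. In heterozygotes all 7 tested markers were higher on the left, with a median log2 difference of 0.31. Of them 0 passed there, against 3.29% of all named genes. Acta2 was higher on the right in wild type, at -1.96 (adjusted p = 0.0309 by limma), and did not pass in the average. Rgs5, a pericyte marker, and Smtn, a smooth muscle marker, were higher on the left in the average, at 0.56 (adjusted p = 0.0236 by limma) and 0.29 (adjusted p = 0.0428 by limma). The part of these cells in the Abcc9 difference was not tested.

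Of its partners, Kcnj11 signals were 75.6, 119.7, 75.7, 96.7 and 99.1 on LA wt, 81.7, 74.9, 119, 70.9 and 97.6 on LA het, 57.8, 56.9, 39.9, 69.3 and 74.1 on RA wt and 57.1, 80.8, 97.7, 114.9 and 56.5 on RA het. In wild type the sides did not overlap, and the log2 difference of 0.54 did not pass the adjustment over all probes (SE 0.18, adjusted p = 0.13 by limma). In heterozygotes it was 0.13 with overlap (adjusted p = 0.837 by limma), and the difference between the genotypes in this respect did not pass either (interaction -0.41, SE 0.25, adjusted p = 0.9994 by limma). Kcnj8 signals were 125.5, 117.6, 184.2, 143.1 and 80.8 on LA wt, 145, 171.7, 145.8, 156 and 174.6 on LA het, 173.5, 136.9, 168.5, 105.7 and 145.6 on RA wt and 169.9, 130, 171, 177 and 128.3 on RA het. Abcc8 signals were 547.2, 589.8, 619.6, 614.9 and 620 on LA wt, 538.4, 533.7, 584.8, 542.5 and 596.5 on LA het, 770.2, 444.2, 638.4, 507.3 and 592.1 on RA wt and 579.8, 658.8, 637.4, 627.6 and 579.1 on RA het. Both overlapped between the sides, with averaged differences of -0.07 for Kcnj8 (95% interval -0.30 to 0.17) and -0.05 for Abcc8 (-0.21 to 0.12).

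Kcnn1 and Kcnn2 encode small-conductance channels that open on calcium. Kcnn2 signals were 29.5, 37.5, 24.7, 78.4 and 39.6 on LA wt, 30, 34.7, 27.5, 43.7 and 38.3 on LA het, 45.2, 34.7, 43.1, 29.9 and 48.5 on RA wt and 22.2, 31, 35.4, 29.5 and 33.8 on RA het. The groups overlapped, with 1 high LA wt array at 78.4, and the averaged side difference was 0.06 (95% interval -0.20 to 0.31). Kcnn1 lay between 59.1 and 107.4 on all 20 arrays, and its averaged side difference of 0.21 did not pass (SE 0.09, adjusted p = 0.192 by limma).

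Members that did not reach the filter were Kcna2, Kcna4, Kcna7, Kcnc1, Kcnd3, Kcne2, Kcne3, Kcnk1, Kcnn3 and Kcnq1. They encode further voltage-gated pores (Kcna2, Kcna4, Kcna7, Kcnc1, Kcnd3 and Kcnq1), relatives of minK (Kcne2 and Kcne3), the TWIK leak channel (Kcnk1) and another calcium-activated pore (Kcnn3). Kcna2 was detected on 3 arrays, and Kcnc1, Kcne3, Kcnk1 and Kcnn3 on 0. Each of Kcna4, Kcna7, Kcnd3, Kcne2 and Kcnq1 was detected on 1 array. The Kcnd3 probe detected on 1 array stood between -2.6 and 19.4, and that of Kcnq1 between -7.3 and 19.6, around the background that had been subtracted. The brighter Kcnq1 probe, detected on 0 arrays, stood between -8.2 and 17.4. The levels and differences of these members were not detectable with these probes, which does not show that the transcripts are absent.

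The second question is what differs between heterozygous and wild-type mice in each atrium. Of the 20 tested genes 0 passed between heterozygous and wild-type left atria by limma, against a background of 0.00897%, which is 1 of the 11154 named genes. At an unadjusted p under 0.05 there were 3, against 5.41% of all named genes: Kcna5, Kcnk2 and Kcnab1, each higher in heterozygotes. In the right atrium 0 passed against a background of 0%, and 0 had an unadjusted p under 0.05 (5.54% of all named genes). Averaged over the sides 0 passed, again against 0%, with 3 at an unadjusted p under 0.05 (7.37% of all named genes), namely Kcna5, Kcnk2 and Abcc9. No member passed a genotype comparison in any of the alternative settings either. The median log2 difference of the 20 genes, heterozygous minus wild type, was 0.02 in the left atrium and 0.08 in the right, against -0.0008 and 0.01 over all named genes.

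**Figure D5:**
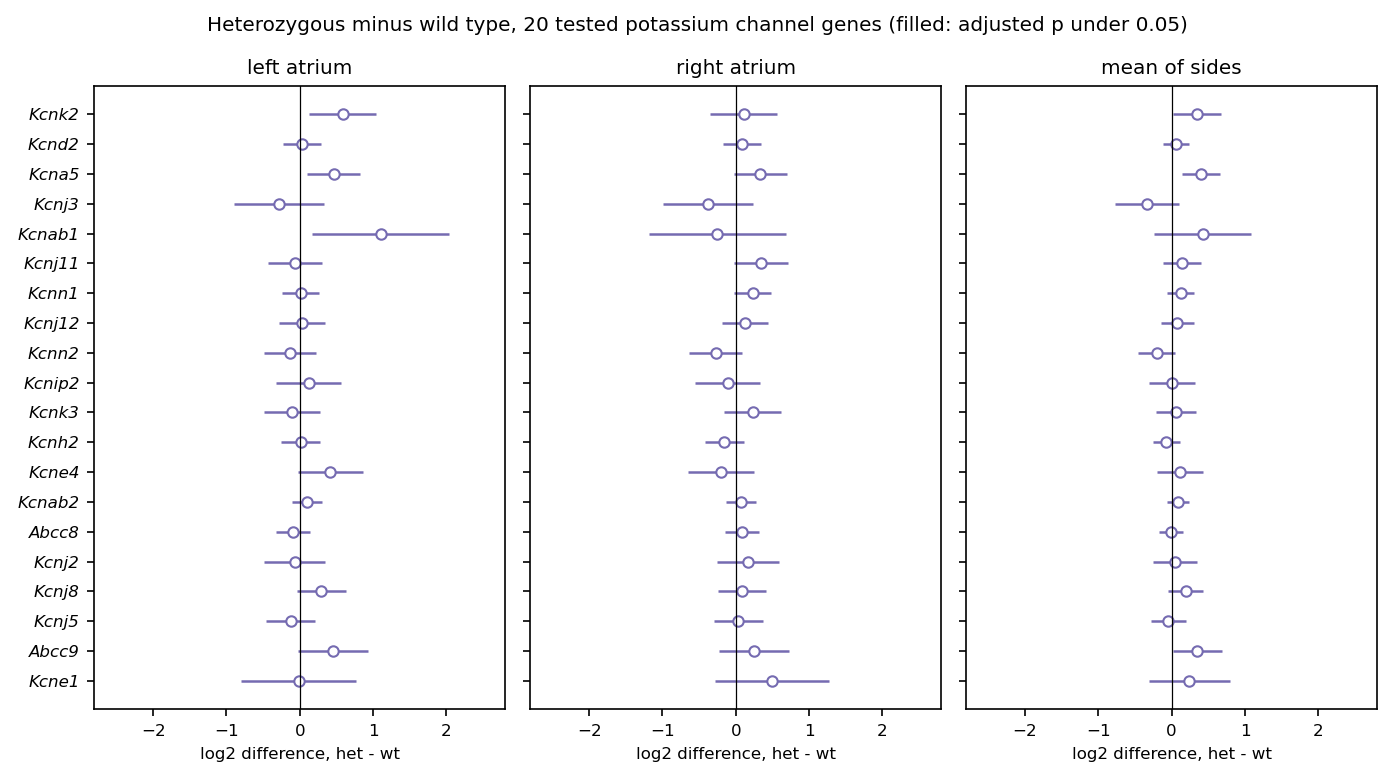
Log2 difference between heterozygous and wild-type mice (heterozygous minus wild type) of the 20 tested potassium channel genes in the left atrium, in the right atrium and averaged over the sides, with limma estimates and 95% confidence intervals. No point is filled because none passed, and the Kcnab1 interval in the left atrium, 0.17 to 2.03, reaches furthest from 0.

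Kcna5 had the smallest p of the members for the genotype. The LA het signals were 144.1 or more and those of LA wt 147.8 or less, so the groups overlapped in a narrow range. The log2 difference was 0.46 in the left atrium (SE 0.17, 95% interval 0.10 to 0.82, adjusted p = 0.9997 by limma) and 0.34 in the right (SE 0.17, 95% interval -0.02 to 0.70, adjusted p = 0.83 by limma). Averaged over the sides it was 0.40 (SE 0.12, adjusted p = 0.495 by limma). The direction was thus the same in both atria, with no call after adjustment.

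Kcnk2 was 0.59 higher on the log2 scale in LA het than in LA wt (SE 0.22, 95% interval 0.13 to 1.05, adjusted p = 0.9997 by limma) and 0.11 higher in RA het than in RA wt (95% interval -0.35 to 0.57). Kcnab1 was 1.10 higher in LA het (SE 0.45, adjusted p = 0.9997 by limma), and -0.04 without the arrays with Ucp1 above 100, which takes out 3 of the 5 LA het arrays. In the right atrium the widest estimates were 0.49 for Kcne1 (SE 0.37) and -0.38 for Kcnj3 (SE 0.30). Without the arrays with Myl2 above 3000 the Kcne1 value turned to -0.37 (adjusted p = 0.999 by limma). Kcnd2 differed between the genotypes by 0.03 in the left atrium (95% interval -0.23 to 0.29) and by 0.08 in the right (-0.18 to 0.34).

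The last test asks whether the side difference depends on the genotype. By limma 0 of the 20 genes passed, against a background of 0%, and 1 had an unadjusted p under 0.05, Kcnab1, against 2.91% of all named genes. The Kcnab1 interaction was 1.36 on the log2 scale (SE 0.63, adjusted p = 0.9994 by limma), and 0.30 without the arrays with Ucp1 above 100. For the 6 genes called between the sides the interaction lay between -0.51 for Kcne1 (SE 0.53) and 0.48 for Kcnk2 (SE 0.31). Kcnd2 passing in wild type only, and Kcnk2 and Kcne1 in heterozygotes only, is therefore not a difference between the genotypes that these data show.

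The spread among arrays of a group sets what could be seen. The residual SD of the members on the log2 scale ran from 0.14 for Kcnab2 to 0.78 for Kcnab1, with 0.65 for Kcne1 and 0.51 for Kcnj3, against a median of 0.22 over all named genes.

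Beyond the 30 genes, 59 of 68 further potassium channel genes on a list had a probe and 18 were tested. In wild type 1 of the 18 passed between the sides, and in the average 2 passed, all higher in the right atrium. Over all named genes 4.2% passed in wild type and 9.09% in the average, so these shares lie near the background. Kcnc4, a fast voltage-gated pore gene, had a log2 difference of -1.36 in wild type (SE 0.33, adjusted p = 0.023 by limma) and -1.17 in the average (adjusted p = 0.00247 by limma). Kcnk13, a leak channel gene, had -0.42 in the average (SE 0.11, adjusted p = 0.0218 by limma). In heterozygotes 0 of the 18 passed between the sides by limma, with 4 at an unadjusted p under 0.05 (14.7% of all named genes had such a p), and 0 passed in the genotype comparisons and the interaction. Among 16 tested sodium, calcium and pacemaker channel genes, 2 passed in the average, against 9.09% of all named genes: Cacna1g, the pore of a T-type calcium channel, at -0.92 (SE 0.13, adjusted p = 4.8e-05 by limma) and Scn4b, a sodium channel beta subunit, at 1.38 (SE 0.27, adjusted p = 0.00219 by limma).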

How the data were processed

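Atrial RNA was measured on 20 Illumina bead arrays (4 groups of 5), with biotin-labelled cRNA per the labels' protocols. The deposited intensity values had been background-subtracted (33.7% to 33.9% below 0) and quantile-normalized by the authors (sorted values equal within 1.8 units), as the values show (software not given in the sources used here). Detection columns, deposited as 1 minus the detection p-value, were turned around. With limma 3.58.1 in R 4.3.3, neqc (normexp from detection p, offset 16, quantile, log2) was applied, then lmFit on 4 group means and eBayes for 7 contrasts, with Benjamini-Hochberg adjustment over 20097 probes. Calls needed an adjusted p below 0.05, and the brightest tested probe stood for its gene. Fold changes understate dim probes because of the offset. The number of arrays limits the precision. Names came from the platform annotation given here (34885 probes with 1 symbol, 18 with several, 10378 with none). The script was tested on simulated data. Members and lists were chosen with earlier results of these data known. Values by array are given for called members, the 2 largest differences of each contrast and the main channels of each class. Alternatives covered background correction, normalization, offset, filter, probes per gene, variance model, array weights, arrays in the fit, replicate blocks, Myl2 as a covariate and arrays left out. The targeted gene is not reported here.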

Additional observations from a re-analysis of the deposited data

Results flagged for a closer look

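Of 80 combinations of a tested gene and a group, 4 held an array far from the other arrays of its group, about as many as the 1 in 20 that chance flags. Kcnj5 on LA het replicate 2 was low at 63.3, against 105.7 to 122.4 on the other arrays of the group. Abcc9 on RA het replicate 4 was high at 364.8, against 137 to 181.3, and the same array had the highest Myl2 signal, 33896.9. Kcnab1 on RA wt replicate 2 was high at 118.8, against 15 to 23.7, on an array where Myh11 stood at 1286. Kcnab2 on LA wt replicate 1 was high at 50.9, against 44 to 45.4, a range that is narrow beside the other members. The part of other tissue in these values was not tested.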

How the results depend on the processing

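Member counts for the genotype in either atrium, for its average and for the interaction were 0 in all settings run. In wild type the count between the sides was 1, and 2 with array weights and in a fit of these groups alone (Kcnd2 and Kcne1 in both), 0 with the Myl2 covariate, 2 without the arrays with Myl2 above 3000 (Kcne1 and Abcc9), and 0 to 1 when 1 array was left out. In heterozygotes the count was 2, and 4 with array weights, 1 in a fit of these groups alone (Kcne1), 1 without the arrays with Myl2 above 3000 (Kcnk2), 0 without those with Ucp1 above 100, and 1 to 3 when 1 array was left out. In the average it was 6, and 3 with no filter on dim probes (Kcnd2, Kcne1 and Kcnk2), 2 with the Myl2 covariate (Kcnj5 and Kcnk2), and 4 to 6 when 1 array was left out. The cause of these shifts was not tested. The counts over all probes, 660, 524 and 1478, ran from 354 to 1001, 250 to 777 and 631 to 1981; those for the genotype in the left and right atrium, its average and the interaction, 1, 2, 2 and 2, ran from 0 to 5, 0 to 3, 0 to 12 and 0 to 2. No called member changed sign. The labels do not say that replicate numbers pair the samples; deviations of same-numbered arrays correlated between -0.42 and 0.349, and a sample correlated best with its own number in 2 of 10 pairs, so the numbers were not taken to pair them. With the replicate number as a fixed block the counts were 1, 2 and 6, and with it as a random block 1, 3 and 6; Kcnj3 then passed in the average under the fixed block (0.40, adjusted p = 0.0394 by limma) and Kcnj5 did not (adjusted p = 0.0692 by limma). Dim probes such as those of Kcnk2, Kcne1, Kcnip2 and Kcnab1 lie close to background on part of the arrays, which limits their folds.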
